A study of Homo sapiens with 17 samples.

Results

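The expression of 50 genes that drive the cell division cycle was followed in human lung adenocarcinoma cells with and without the kinase LKB1. The genes were taken from a fixed list of names: 9 G1 regulators, 14 genes of DNA replication, called S-phase members here, and 27 genes of mitosis. A gene was counted as measured when a probe set of the array carried its symbol and no other, and the brightest probe set was used where a gene had several, as for CCND1 and CDC20. By this rule 47 of the 50 were measured, among 17958 genes in all: 9 G1 regulators, 13 S-phase members and 25 mitotic members. PCNA, BUB1B and KIF20A lay on probe sets shared with a neighbouring or overlapping gene and were not measured.

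Well-known waves of transcription run through the division cycle. D-type cyclins with CDK4 and CDK6, and then E-type cyclins with CDK2, inactivate the retinoblastoma protein RB1 in G1, which frees E2F factors to switch on the genes that license and copy DNA. Later, FOXM1 and the MuvB complex switch on the cyclins, kinases, kinesins and kinetochore proteins of mitosis, so that in a mixed population the levels of both groups rise and fall with the share of cells in cycle. LKB1, a serine/threonine kinase encoded by STK11, is a tumour suppressor that is often lost in lung adenocarcinoma and is known to restrain growth through AMPK and related kinases.

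RNA from 2 lines without functional LKB1, A549 and H2122, was hybridised to 17 Affymetrix arrays with 1 sample each. Each line had been transduced with a pBABE retrovirus that carried wild-type LKB1, the kinase-dead mutant LKB1-K78I, or no insert, so every cell including the empty-vector controls had been infected and kept in 1.0 µg/mL puromycin for 2 weeks, and cells were harvested while growing in 5% serum. There were 3 arrays per group, and 2 for H2122 with the empty vector. Values are log2 expression levels. No label states whether replicates are separate cultures, and the spread that the p-values rest on may therefore be technical.

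Several arrays limit what follows. STK11, the introduced gene, lay between 6.22 and 6.33 on the H2122 pBABE arrays and between 11.20 and 11.35 on the LKB1 and K78I arrays of that line. In A549, the library labelled pBABE replicate 3 read 10.52 and the library labelled K78I replicate 2 read 7.14, both against their labels, while the other pBABE arrays read 6.88 and 7.38, the other K78I arrays 10.54 and 10.42, and the LKB1 arrays 9.42 to 10.23. For 3 H2122 arrays (pBABE replicate 2, LKB1 replicate 3 and K78I replicate 3) the sample title and the source name give different constructs, and titles were used. On pBABE replicate 2, STK11 read 6.22, which goes with its title and not with its source name. On K78I replicate 3, whose source name gives the empty vector, STK11 read 11.26, which also goes against the source name. STK11 cannot tell an LKB1 array from a K78I array. Median levels per array lay between 5.62 and 5.73. The epithelial markers KRT7, KRT8, KRT18 and CDH1 were high in both lines, EPCAM and KRT19 were low in A549 (means 6.94 and 4.83) and high in H2122 (11.23 and 10.72), and the mean of the leukocyte, endothelial or fibroblast markers was at most 4.38 on every array.

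Promoters of 39 of the 50 genes, 3 of them the genes not measured here, were found in a RefSeq table (build GRCh38.p14) that spans 250 bases before to 50 bases after each gene's start. They are shown because the S-phase and mitotic genes, which behaved differently on some arrays below, also differ in their promoter letters. On either strand, the E2F-type letters TTTCCCGC, TTTGGCGC, TTTCGCGC or TTTGCCGC stood in 9 of 12 S-phase promoters, 3 of 5 G1 promoters and 1 of 22 mitotic promoters (CDK1), against 3.33% of all 27305 promoters. The CHR letters TTTGAA, named for the cell cycle genes homology region that MuvB complexes bind, stood in 15 of 22 mitotic promoters, 1 of 12 S-phase promoters (RRM1) and 0 of 5 G1 promoters, against 15.4% of all. CCAAT stood in 17 of 22 mitotic, 10 of 12 S-phase and 2 of 5 G1 promoters, against 35.7% of all. These matches describe letters in a window and were not tested for binding. The promoters of a replicative helicase subunit (MCM2, chr3:127598161-127598460, plus strand), an E2F factor (E2F2, chr1:23531184-23531483, minus strand), a mitotic cyclin (CCNB2, chr15:59104896-59105195, plus strand) and a mitotic kinase (PLK1, chr16:23678639-23678938, plus strand) are printed in the direction of the gene, with every match to these letters in capitals.
MCM2: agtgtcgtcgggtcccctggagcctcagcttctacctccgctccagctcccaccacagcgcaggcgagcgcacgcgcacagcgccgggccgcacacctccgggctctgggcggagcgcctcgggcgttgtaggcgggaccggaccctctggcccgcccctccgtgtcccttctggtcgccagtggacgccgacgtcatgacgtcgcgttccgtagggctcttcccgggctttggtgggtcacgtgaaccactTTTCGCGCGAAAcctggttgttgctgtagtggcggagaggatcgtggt
E2F2: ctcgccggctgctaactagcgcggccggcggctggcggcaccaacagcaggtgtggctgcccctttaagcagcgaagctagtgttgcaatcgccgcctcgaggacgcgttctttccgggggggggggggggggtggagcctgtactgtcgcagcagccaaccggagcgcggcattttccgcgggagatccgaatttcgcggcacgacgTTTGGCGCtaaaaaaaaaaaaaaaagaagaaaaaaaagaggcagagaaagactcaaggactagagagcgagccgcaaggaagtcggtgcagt
CCNB2: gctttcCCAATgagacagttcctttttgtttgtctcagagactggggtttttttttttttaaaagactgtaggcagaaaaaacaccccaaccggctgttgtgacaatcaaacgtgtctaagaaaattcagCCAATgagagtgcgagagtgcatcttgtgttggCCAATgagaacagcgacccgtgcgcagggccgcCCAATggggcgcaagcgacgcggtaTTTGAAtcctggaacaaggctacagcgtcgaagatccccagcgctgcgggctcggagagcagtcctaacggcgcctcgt
PLK1: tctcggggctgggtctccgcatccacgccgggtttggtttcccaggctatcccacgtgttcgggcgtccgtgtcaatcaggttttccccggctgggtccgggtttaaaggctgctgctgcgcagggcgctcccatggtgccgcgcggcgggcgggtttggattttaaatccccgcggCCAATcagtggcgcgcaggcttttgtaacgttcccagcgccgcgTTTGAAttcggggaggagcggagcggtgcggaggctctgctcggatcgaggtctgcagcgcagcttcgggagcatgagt
In MCM2 the matches on the 2 strands overlap and begin at base 3 of the transcript, whereas in E2F2 the match begins 42 bases before the start. In CCNB2 and in PLK1 the CHR letters begin 29 bases before the start. CCNB2 has 4 CCAAT boxes upstream of them and PLK1 has 1.

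Across the 17 arrays the cell cycle genes moved mostly as a block, and the widest movement lay within control groups rather than between constructs. The mean level of the S-phase members was 8.98, 9.86 and 9.75 on the A549 pBABE arrays, 9.76, 8.01 and 9.49 on the A549 K78I arrays, and 9.50, 9.74 and 9.59 on the A549 LKB1 arrays. The A549 LKB1 arrays thus lay inside the range of the controls, and K78I replicate 2 lay far below every other A549 array. In H2122 the S-phase mean was 9.54 and 7.71 with pBABE, 9.50, 9.39 and 9.47 with K78I, and 9.25, 8.97 and 9.23 with LKB1. All 3 H2122 LKB1 arrays lay below 4 of the 5 control arrays, and only pBABE replicate 2 was lower.

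The mitotic members followed a similar order with a smaller range. Their mean was 9.28, 9.85 and 9.84 on the A549 pBABE arrays, 9.76, 9.11 and 9.60 with K78I, and 9.58, 9.82 and 9.74 with LKB1. In H2122 it was 9.71 and 7.98 with pBABE, 9.63, 9.73 and 9.74 with K78I, and 9.66, 9.40 and 9.63 with LKB1. Here the H2122 LKB1 and K78I arrays overlapped, which they did not do for the S-phase mean. The pooled SD between replicates over all 6 groups was 0.41 for the G1 mean, 0.60 for the S-phase mean and 0.43 for the mitotic mean, whereas over the LKB1 groups alone it was 0.080, 0.14 and 0.13.

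**Figure D1:**
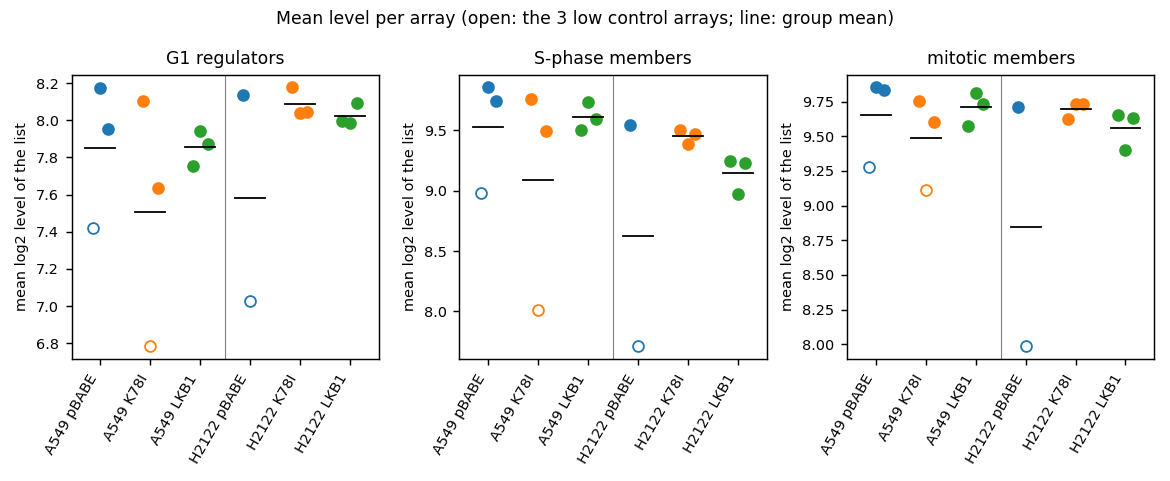
Mean log2 level of the 9 G1 regulators, 13 S-phase members and 25 mitotic members (vertical axes, which do not start at 0) on each array, by construct and line. Each circle is 1 array and each bar a group mean; the open circles, A549 pBABE replicate 1, A549 K78I replicate 2 and H2122 pBABE replicate 2, lie below the other arrays of their group in every panel.

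Those 3 low control arrays are the ones that the comparisons were made with and without. They were singled out for their low cell cycle levels, so those levels are a description and carry no test, and calls made without them are not independent evidence. A lower level on an array can mean fewer cells in cycle or less of each RNA per cell, and bulk RNA cannot tell these apart. Counted against the other arrays of its own group, H2122 pBABE replicate 2 was lower for 46 of the 47 genes, with a median of -1.72 over all members and -0.021 over all genes. All 13 S-phase members and all 25 mitotic members were more than 1 log2 unit lower on it, where 523 of all 17958 genes were. The medians were -1.79 for the S-phase members and -1.77 for the mitotic members.

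A549 K78I replicate 2 had another profile. STK11 on this array went against its label, so the other K78I arrays may not be its proper reference. Over all genes its median against them was -0.002, and 670 of 17958 genes were more than 1 log2 unit lower. Its S-phase members lay at a median of -1.64 against its group, from -0.72 for RRM1, a subunit of ribonucleotide reductase, to -2.07 for MCM7, a subunit of the replicative helicase. Its mitotic members lay at a median of -0.51, and AURKA, a spindle-pole kinase, was 0.19 higher. The S-phase mean minus the mitotic mean was -1.10 on this array, against -0.30 to 0.006 on the other A549 arrays. A549 pBABE replicate 1 was lower by a like amount in both lists, with medians of -0.72 and -0.63. Of the 47 genes, 38 were at their A549 minimum on K78I replicate 2 and 35 had their second-lowest A549 level on pBABE replicate 1. In H2122, 45 of the 47 were lowest on pBABE replicate 2.

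Sorted by promoter letters, the members measured with E2F-type letters (12 genes) lay at a median of -1.48 on A549 K78I replicate 2 and those with CHR letters (15 genes) at -0.67. On A549 pBABE replicate 1 these medians were -0.70 and -0.63, and on H2122 pBABE replicate 2 they were -1.70 and -1.77. The letters largely follow the S-phase and mitotic lists, so this repeats the difference between lists in another form.

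Of the D-type cyclins, which couple growth signals to the G1 kinases, CCND1 moved little on these arrays and CCND3 moved little on the A549 arrays only. CCND1 differed from its group by -0.25 on A549 pBABE replicate 1, -0.33 on A549 K78I replicate 2 and -0.022 on H2122 pBABE replicate 2. CCND2 differed by 0.055, -0.16 and 0.28 on the same arrays, but its levels there cannot be told from background, so a fall might not be seen. CCND3 differed by 0.20 and -0.069 on the A549 arrays but by -1.19 on the H2122 array. CCNE2, an E-type cyclin that activates CDK2, was by contrast among the genes that differed most, by -1.43, -2.52 and -2.42.

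**Figure D2:**
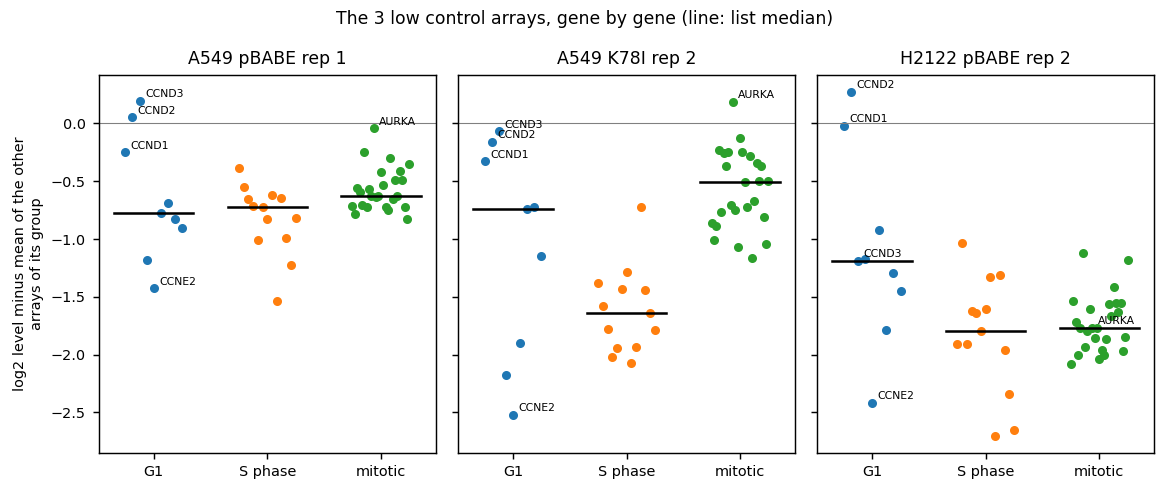
Log2 level of each gene on the 3 low control arrays minus the mean of the other arrays of the same group, for the G1, S-phase and mitotic lists. Points are genes and bars are list medians; on A549 K78I replicate 2 the S-phase bar lies at -1.64 and the mitotic bar at -0.51, while D-type cyclins lie near 0 except CCND3 in H2122.

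Other genes of the same processes moved with them on these arrays. Of 33 further replication genes 32, 31 and 33 were lower on A549 pBABE replicate 1, A549 K78I replicate 2 and H2122 pBABE replicate 2, and of 44 further mitosis genes 43, 40 and 44 were lower. Of all 17958 genes, 9916, 9017 and 9371 were lower on these arrays. Replication-dependent histone genes did not follow on A549 K78I replicate 2, where 13 of 58 were lower and the median was 0.32, against -0.47 and -0.45 on the other arrays. Histone genes are near-identical copies, so their counts and single-gene values are uncertain here and below. CDKN1A, which encodes the CDK inhibitor p21, and CDKN1B, which encodes p27, had their highest A549 levels on K78I replicate 2, at 8.95 and 9.27, but over the 7 CDK inhibitors measured the median on that array was -0.015 and 4 were lower. 

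**Figure D3:**
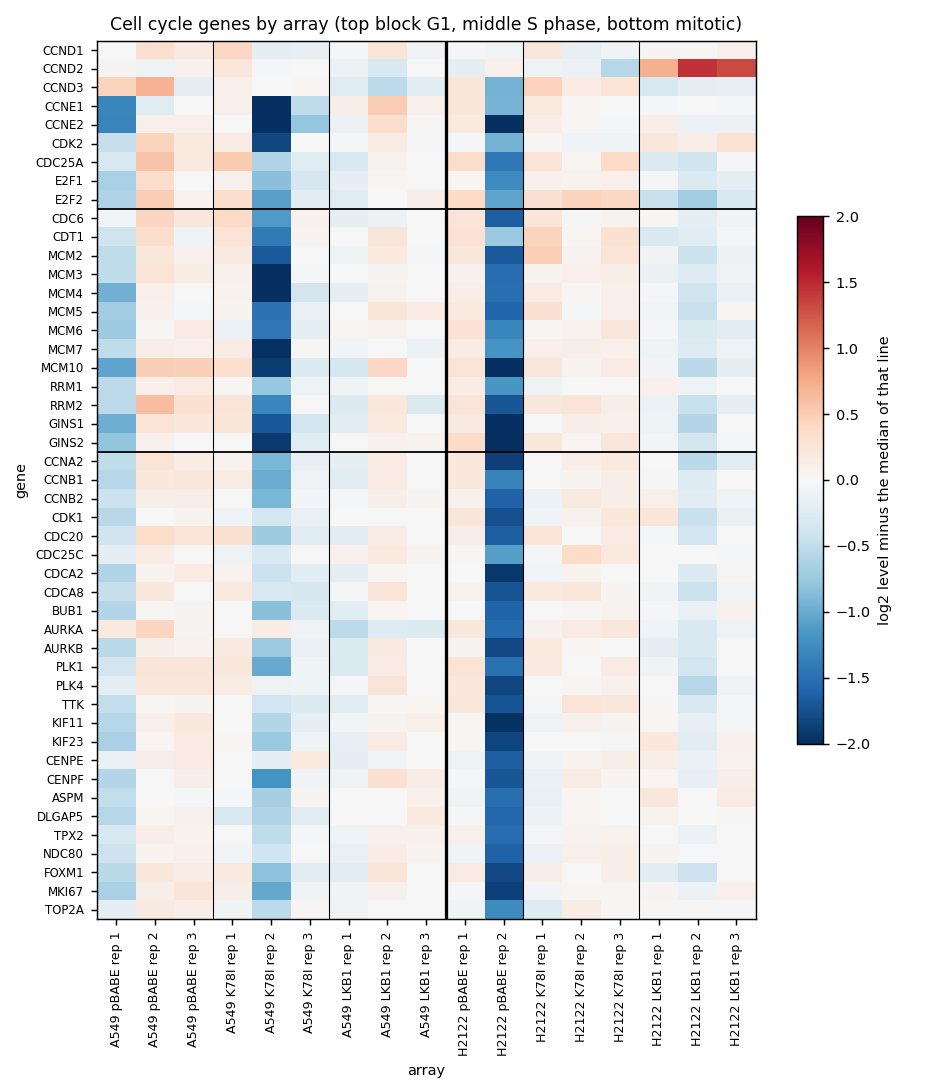
Log2 level of the 47 measured genes (rows, in the order G1, S phase, mitotic) on the 17 arrays (columns, by line and construct), minus the median of that gene over the arrays of the same line; the colour scale runs from -2 to 2. The dark blue columns are A549 K78I replicate 2, darkest in the S-phase block, and H2122 pBABE replicate 2, and CCND2 is red on the H2122 LKB1 arrays alone.

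In A549, the S-phase and mitotic means with wild-type LKB1 lay within the range of the controls. Against empty vector, 0 of 47 members passed limma's test at an adjusted p of 0.05, where 5.5% of all genes did, and 1 member, CCND3, had an unadjusted p under 0.05. The median log2 difference was 0.086 for the S-phase members and 0.089 for the mitotic members, with -0.030 over all genes. Against K78I, 0 of 47 passed, where 5.25% of all genes did. There the medians were 0.60 for the S-phase and 0.25 for the mitotic members, and all 13 S-phase differences were above 0. Without the 3 low control arrays these medians became -0.15 and -0.11 against pBABE and -0.0050 and 0.034 against K78I, so the sign of the medians against pBABE and of the S-phase median against K78I rested on those arrays. Without the 2 arrays whose STK11 level went against the label, the medians were 0.19 and 0.19 against pBABE and -0.0050 and 0.034 against K78I, and CCND3 was called against pBABE (-0.90 ± 0.25, adjusted p = 0.0348, limma). The A549 comparisons share the LKB1 arrays.

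A pair of genes nevertheless stood below all 6 controls on each A549 LKB1 array. CCND3, a D-type cyclin, read 10.72, 10.44 and 10.74 with LKB1, against 11.41, 11.66 and 10.76 with pBABE and 11.06, 10.96 and 11.003 with K78I. The gap to the nearest control was small beside the spread of the pBABE arrays. The log2 difference was -0.65 ± 0.25 (SE, adjusted p = 0.173, limma) against pBABE and -0.38 ± 0.25 (adjusted p = 0.446) against K78I.

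AURKA, the mitotic kinase that builds the spindle poles, read 9.44, 9.71 and 9.68 with LKB1. It read 10.16, 10.38 and 10.02 with pBABE and 9.96, 10.11 and 9.89 with K78I, with no overlap, and on the low arrays it differed from its group by -0.041 and 0.19. Its log2 difference was -0.58 ± 0.29 (SE, adjusted p = 0.325, limma) against pBABE and -0.38 ± 0.29 (adjusted p = 0.533) against K78I. All groups of both lines share 1 estimate of spread per gene, and the H2122 pBABE arrays, at 9.78 and 8.02, set most of it for AURKA. Without either H2122 pBABE replicate 1 or replicate 2, the adjusted p against pBABE was 0.00993 for AURKA and 0.0461 for CCND3, and CCND3 also passed without A549 pBABE replicate 3 (-0.90 ± 0.24, adjusted p = 0.0436). Without the 3 low control arrays AURKA was called against pBABE (-0.59 ± 0.13, adjusted p = 0.0156), as the 1 member among 47 where 7.93% of all genes were called. Against K78I 0 members were called, where 5.26% of all genes were.

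CCNE1, the E-type cyclin that starts S phase, lay on the other side. It read 8.10, 8.48 and 8.09 with LKB1, 6.69, 7.75 and 7.98 with pBABE, and 8.08, 5.60 and 7.47 with K78I. The LKB1 arrays were above all controls, but K78I replicate 1 lay only just below them. The log2 differences were 0.75 ± 0.49 (adjusted p = 0.481, limma) and 1.18 ± 0.49 (adjusted p = 0.194), and without K78I replicate 1 the second became 1.69 ± 0.47 (adjusted p = 0.0393). The K78I arrays then left were the low replicate 2, at 5.60, and replicate 3, at 7.47. 

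By position alone, 1 member lay above and 2 lay below every pBABE array on all A549 LKB1 arrays, where 13.2% and 13.8% of all genes did. Against K78I the counts were 6 and 2, where 11.8% and 10.4% of all genes did so. Against the 4 other control arrays left when the low ones were dropped, 1 member lay above and 5 below, where 10.6% and 9.92% of all genes did. The 5 were CCND3, AURKA, the helicase loader CDC6, MCM7 and the kinetochore motor CENPE. All of these shares were near or under the background. The 6 above K78I were CCNE1, the replication genes MCM6 and GINS2 and the mitotic genes CDK1, CDC25C and DLGAP5.

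**Figure D4:**
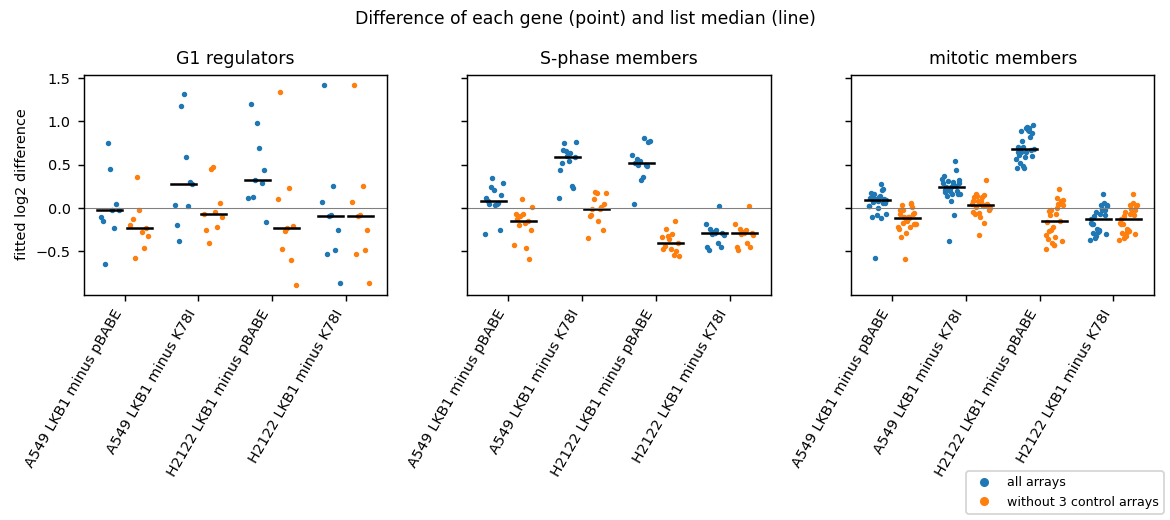
Fitted log2 difference of each gene (points) and list median (bars) for wild-type LKB1 against each control in each line, with all arrays (blue) and without the 3 low control arrays (orange). The S-phase bar for H2122 LKB1 against pBABE goes from 0.52 to -0.41, whereas the bars against H2122 K78I stay at -0.29 because no H2122 K78I array was among those left out.

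In H2122, the sign of the LKB1 difference depended on the control. Against pBABE, 46 of the 47 members were higher on average with LKB1, with medians of 0.52 for the S-phase and 0.69 for the mitotic members and -0.048 over all genes. Against K78I, 38 of the 47 were lower, with medians of -0.29 for the S-phase and -0.13 for the mitotic members and -0.022 over all genes. Without the low arrays only pBABE replicate 1 is left in its group. The medians against pBABE then became -0.41 and -0.15, and all 13 S-phase members were lower. Without pBABE replicate 1 instead, they became 1.44 and 1.61, and 30 members were called, where 10% of all genes were, with the low array as the only pBABE array left. Without the 3 arrays with conflicting labels, the S-phase and mitotic medians were -0.45 and -0.15 against pBABE and -0.34 and -0.10 against K78I. Both comparisons share the LKB1 arrays.

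Most of these differences did not pass the test. Against pBABE 1 of 47 members was called, CCND2, where 5.77% of all genes were. Against K78I 1 was called, also CCND2, where 3.89% of all genes were. Without the low arrays, CCND2 and E2F2 were called against pBABE, where 5.61% of all genes were, and CCND2, E2F2 and MCM2 against K78I, where 10.1% of all genes were.

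Read by position, the H2122 LKB1 arrays lay below every K78I array for 22 of the 47 members and above for 2, where 17.7% and 13.3% of all genes did so. Of the 22, 9 were among the 13 S-phase members, 8 among the 25 mitotic members and 5 among the 9 G1 regulators. The S-phase genes were the helicase subunits MCM2, MCM3, MCM4, MCM6 and MCM7, the helicase loading factor CDT1, the origin-firing factors MCM10 and GINS2, and RRM2, the regulated subunit of ribonucleotide reductase. The mitotic genes were CCNA2, CCNB1, CDC20, CDCA8, AURKA, PLK1, PLK4 and FOXM1, the transcription factor of the mitotic programme. The proliferation markers MKI67 and TOP2A were not among them. Their LKB1 and K78I arrays overlapped, with log2 differences of 0.021 and 0.036. The same 22 also lay below pBABE replicate 1, so below all 4 remaining controls, where 15.2% of all genes did. The 2 genes above, CCND2 and CDK2, also lay above all 4, where 11.9% of all genes did. Against both pBABE arrays, 7 members lay above and 0 below, where 14.2% and 18.5% of all genes did. Genes of a programme move together, so these counts describe the arrays and are not a test of the list. LKB1 replicate 2 was the lowest of the LKB1 arrays in the S-phase mean.

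E2F2, a transcription factor that drives S-phase genes and is itself switched on in late G1, had the largest drop against K78I. It read 5.73, 5.48 and 5.87 with LKB1, against 6.48, 6.62 and 6.58 with K78I. It read 6.58 and 5.13 with pBABE, so that only the low pBABE array lay beneath the LKB1 arrays. The log2 difference from K78I was -0.87 ± 0.37 (SE, adjusted p = 0.248, limma) with all arrays and -0.87 ± 0.17 (adjusted p = 0.00657) without the low arrays. No array of this comparison was left out, so only the shared spread changed. The arrays left out were chosen for low cell cycle levels, so the smaller p-value is not independent evidence. Against the 1 remaining pBABE array the log2 difference was -0.88. In A549, E2F2 overlapped in all 3 groups, and the difference between lines in the K78I comparison did not pass without the low arrays either (-0.77 ± 0.25, adjusted p = 0.137).

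MCM2, the helicase subunit whose promoter is printed above, read 8.86, 8.50 and 8.82 with LKB1, against 9.41, 9.01 and 9.21 with K78I and 9.16 and 7.26 with pBABE. The LKB1 and K78I arrays did not overlap. The log2 difference was -0.48 ± 0.45 (adjusted p = 0.711, limma) with all arrays and -0.48 ± 0.13 (adjusted p = 0.0397) without the low arrays. Here too the arrays compared were the same and only the shared spread changed, so the second p-value is not independent evidence.

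CCND3 and AURKA, the genes that lay lowest with LKB1 in A549, were also lower with LKB1 than with K78I in H2122. CCND3 read 10.00, 10.14 and 10.15 with LKB1 against 10.79, 10.49 and 10.59 with K78I and 10.56 and 9.37 with pBABE. Its log2 difference from K78I was -0.53 ± 0.25 (adjusted p = 0.319, limma), and -0.53 ± 0.18 (adjusted p = 0.0903) without the low arrays. AURKA read 9.46, 9.24 and 9.45 with LKB1 against 9.64, 9.71 and 9.78 with K78I, a log2 difference of -0.32 ± 0.29 (adjusted p = 0.688), and -0.32 ± 0.12 (adjusted p = 0.106) without the low arrays. 
MCM7 was the third member, beside CCND3 and AURKA, below all remaining controls of both kinds in both lines. It read 10.70, 10.76 and 10.65 with LKB1 in A549, where pBABE replicates 2 and 3 read 10.88 and 10.87 and K78I replicates 1 and 3 read 10.91 and 10.78. In H2122 it read 10.81, 10.65 and 10.81 with LKB1 against 11.01, 11.02 and 11.01 with K78I. The log2 difference from K78I without the low arrays was -0.15 ± 0.096 (adjusted p = 0.492, limma) in A549 and -0.26 ± 0.086 (adjusted p = 0.0800) in H2122. CCNE1, which lay above the controls in A549, read 7.52, 7.54 and 7.53 with LKB1 in H2122, just below the K78I arrays at 7.75, 7.57 and 7.57, and the difference between lines did not pass (-1.27 ± 0.69, adjusted p = 0.448).

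CCND2, a D-type cyclin, was the member that rose with LKB1, and it rose in H2122. It read 5.24, 5.98 and 5.84 on the H2122 LKB1 arrays. It read 4.43, 4.40 and 3.95 with K78I and 4.35 and 4.63 with pBABE. Every LKB1 array lay above every control, the low one included. CCND2 was dim: its mean is among the lowest 30% of the genes tested, and since no detection calls were used its A549 and control levels cannot be told from background. Its differences are therefore given on the log2 scale of the array, with no fold. In A549 it read 4.23, 4.04 and 4.36 with LKB1, 4.40, 4.24 and 4.44 with pBABE and 4.58, 4.30 and 4.35 with K78I, in overlapping ranges. In H2122 the log2 difference was 1.20 ± 0.20 (SE, adjusted p = 0.00239, limma) against pBABE. It was 1.43 ± 0.18 (adjusted p = 5.06e-04) against K78I. Without the 3 arrays with conflicting labels these became 1.26 ± 0.26 (adjusted p = 0.0373) and 1.19 ± 0.21 (adjusted p = 0.0234). With the arrays grouped by source name CCND2 was not called (1.13, adjusted p = 0.252, and 0.39, adjusted p = 0.942). That grouping takes H2122 pBABE replicate 2 out of the pBABE group, although its STK11 level was that of a pBABE array.

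The difference between lines passed too. The H2122 effect of LKB1 exceeded the A549 effect by 1.35 ± 0.27 against pBABE (adjusted p = 0.0185, limma), as the 1 member called where 2.24% of all genes were, and by 1.63 ± 0.26 against K78I (adjusted p = 0.00444), as the 1 member called where 1.65% of all genes were. Without H2122 LKB1 replicate 3, one of the arrays with conflicting labels, the first became 1.27 (adjusted p = 0.0542), without the 3 low arrays it became 1.47 ± 0.34 (adjusted p = 0.0514), and without the 3 arrays with conflicting labels 1.41 (adjusted p = 0.0986), where the second was 1.395 ± 0.27 (adjusted p = 0.0493). Without H2122 pBABE replicate 1, 25 members were called in the first, where 6.21% of all genes were, again with only the low array left. CCND1 differed by 0.11 ± 0.18 (adjusted p = 0.840, limma) against pBABE and 0.068 ± 0.16 (adjusted p = 0.911) against K78I in H2122, with smaller values than CCND2.

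**Figure D5:**
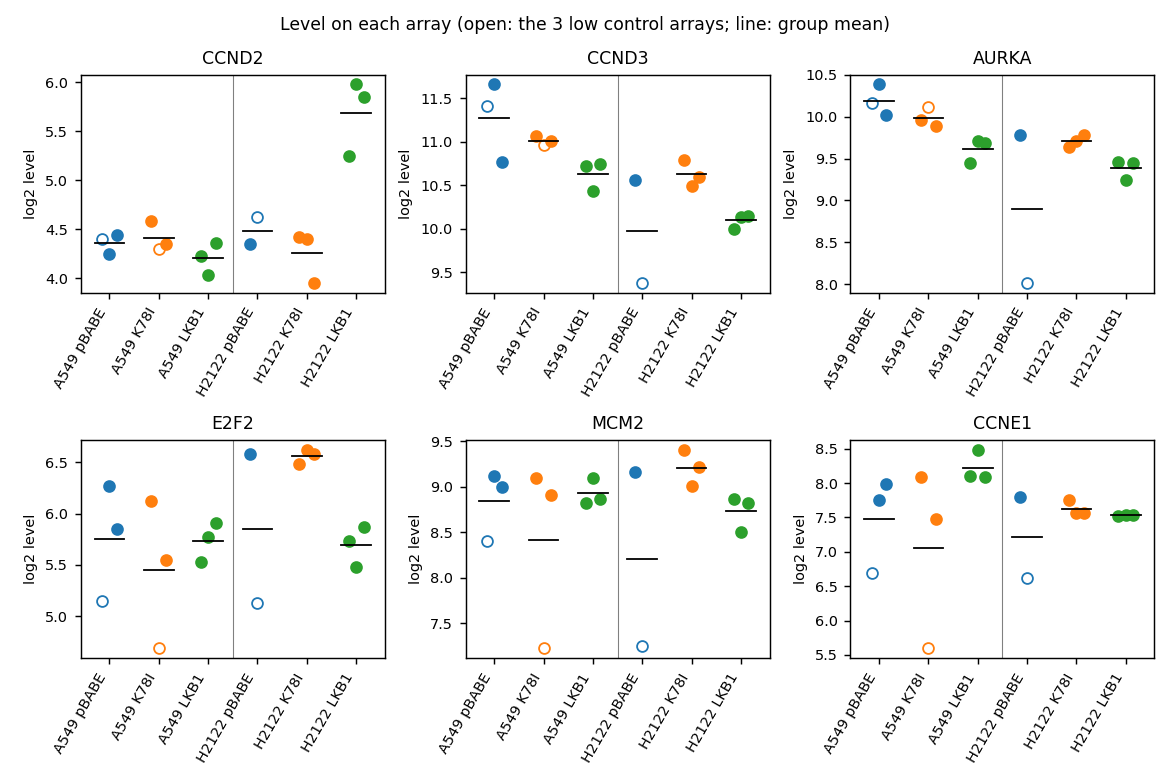
Log2 level of CCND2, CCND3, AURKA, E2F2, MCM2 and CCNE1 on each array (vertical axes differ and do not start at 0), by line and construct. Circles are arrays, bars are group means and open circles are the 3 low control arrays; CCND2 is high on the 3 H2122 LKB1 arrays (5.24 to 5.98), and E2F2 on these arrays (5.48 to 5.87) lies below the H2122 K78I arrays (6.48 to 6.62).

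With all arrays, limma called no gene between the kinase-dead mutant and empty vector in either line. The absence of calls does not show that the groups are alike. Even STK11, the introduced gene, did not pass in H2122, where it was 5.00 ± 0.94 higher with K78I (adjusted p = 0.167, limma). In A549, 0 members were called by limma, where 0% of all genes were. In H2122, 0 members were called, where 0% of all genes were. On average 46 of 47 were higher with K78I, and for 45 of the 47 the low pBABE replicate 2 was the lowest H2122 array. Without H2122 pBABE replicate 1, 36 members were called there, where 5.8% of all genes were, and without the 3 low arrays 0 members were called and 0 had an unadjusted p under 0.05.

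With LKB1 present in both lines, H2122 differed from A549 in a minority of the members. There, 4 were called by limma, where 32.8% of all genes were. CCND2 was 1.48 ± 0.18 higher in H2122 (adjusted p = 1.31e-05). GINS2, a subunit of the complex that activates the replicative helicase, was lower by a log2 difference of -1.52 ± 0.53 (adjusted p = 0.0406), with levels of 9.31, 8.996 and 9.33 in H2122 and 10.68, 10.77 and 10.74 in A549. CDC25C, the phosphatase that activates CDK1, differed by -0.70 ± 0.21 (adjusted p = 0.0162) and TOP2A, the topoisomerase that untangles sister DNA, by -0.65 ± 0.23 (adjusted p = 0.0421). The count lay between 1, without A549 LKB1 replicate 2, and 9, without either H2122 pBABE array. It was 2 without each of A549 LKB1 replicate 1, A549 LKB1 replicate 3, the 3 H2122 LKB1 arrays and H2122 K78I replicate 3.

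The arrays compared are the same without the 3 low control arrays, but the shared spread is smaller, and 21 members were then called, 5 higher and 16 lower in H2122, where 41.4% of all genes were. Lower in H2122 were 7 of 13 S-phase members, among them GINS2, MCM6 (-0.90 ± 0.099) and MCM5 (-0.88 ± 0.14), and 5 of 25 mitotic members, among them AURKB (-0.86 ± 0.13), the kinase of the chromosomal passenger complex. G1 regulators split. CCNE2 was 1.27 ± 0.18 higher in H2122 and CCNE1 lower at -0.69 ± 0.15, while CDC25A, the phosphatase that activates CDK2, was 0.59 ± 0.19 higher.

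Of the 7 CDK inhibitors measured, 0 passed limma's test in the LKB1 comparisons with all arrays, and without the low arrays CDKN1A did, in A549 against pBABE. It read 8.28, 8.15 and 8.19 on the A549 LKB1 arrays, 8.24, 7.19 and 7.10 with pBABE and 7.80, 8.95 and 7.46 with K78I, in overlapping ranges. The pBABE array level with LKB1 was the low replicate 1. The log2 difference from pBABE was 0.70 ± 0.34 (adjusted p = 0.301, limma) with all arrays and 1.06 ± 0.19 (adjusted p = 0.00453) without the low arrays, where 1 of the pBABE arrays left is replicate 3, whose STK11 level went against its label. Against K78I in A549 it was 0.58 ± 0.19 (adjusted p = 0.107) without the low arrays. In H2122 CDKN1A differed by 0.43 ± 0.34 (adjusted p = 0.623) against K78I in H2122. CDKN1B differed by -0.65 ± 0.32 (adjusted p = 0.322) against pBABE in A549 and -0.29 ± 0.32 (adjusted p = 0.767) against K78I in H2122. CDKN2A, which encodes p16, lay between 2.78 and 3.595 on every array, near the lower end of the scale. RB1, the target of the G1 kinases, lay between 9.16 and 9.55 on every array.

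With all arrays, 0 to 3 of the other cell cycle genes were called in each comparison of LKB1 with a control. Among 7 CDK inhibitors, 17 pocket protein, E2F and MuvB genes, 14 further G1 kinases and brakes, 33 further replication genes, 11 checkpoint genes, 44 further mitosis genes, 10 genes of the anaphase-promoting complex and mitotic exit and 58 replication-dependent histone genes, 194 in all, 1 was called by limma in A549 against pBABE, where 5.5% of all genes were. This was GADD45B, a stress-induced regulator, at 0.89 ± 0.24 (adjusted p = 0.0406). Against K78I in A549, 0 were called, where 5.25% of all genes were. In H2122 against pBABE, where 5.77% of all genes were called, 3 were called lower: the repressive factor E2F5 at -0.75 ± 0.18 (adjusted p = 0.0190), the CDK1-activating phosphatase CDC25B at -0.56 ± 0.14 (adjusted p = 0.0331) and the histone gene H2BC21 at -0.997 ± 0.27 (adjusted p = 0.0453). Against K78I, CDC25B was again lower, at -0.49 ± 0.13 (adjusted p = 0.0479), and 0 others were called, where 3.89% of all genes were. Without the low arrays 6 and 1 were called in A549 against pBABE and K78I, where 7.93% and 5.26% of all genes were, and 12 and 21 in H2122, where 5.61% and 10.1% of all genes were. Of the 6, CDKN1A and GADD45B (1.04 ± 0.20, adjusted p = 0.00722) were higher, and E2F8, a repressive E2F factor, was among the 4 lower (-0.56 ± 0.16, adjusted p = 0.0467). In H2122 all but 1 of the 12 and of the 21 were lower, with E2F8 against pBABE and K78I at -1.04 ± 0.20 (adjusted p = 0.0102) and -0.83 ± 0.14 (adjusted p = 0.00313), and the 1 higher was GADD45A, a stress-induced regulator, at 0.99 ± 0.22 (adjusted p = 0.0222) and 0.84 ± 0.16 (adjusted p = 0.00553).

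Against K78I in H2122, some of these lists lay low by position and others did not, where 17.7% of all genes lay below and 13.3% above. Every LKB1 array lay below every K78I array for 23 of the 33 further replication genes, 26 of 58 histone genes, 16 of 44 further mitosis genes, 7 of 17 pocket protein, E2F and MuvB genes, 3 of 10 genes of the anaphase-promoting complex and mitotic exit, 4 of 14 further G1 kinases and brakes, 2 of 11 checkpoint genes and 0 of 7 CDK inhibitors. Above lay 3 of the further G1 kinases and brakes, 2 of the further mitosis genes, 2 of the pocket protein, E2F and MuvB genes and 1 histone gene. The median log2 differences were -0.24 for the replication genes, -0.26 for the histone genes and -0.014 for the G1 kinases and brakes. Between the lines with LKB1, 25 of 58 histone genes were called lower and 3 higher in H2122, where 17.4% and 15.5% of all genes were. Among them H3C11 differed by -7.14 ± 0.25, H4C5 by -5.58 ± 0.20 and H2BC14 by -6.45 ± 0.35. As near-identical copies, histone genes may not be measured separately. Of the further replication genes 6 of 33 and of the further mitosis genes 3 of 44 were called, all lower, which is near or under the share of all genes. TYMS, the thymidylate synthase, differed by -1.62 ± 0.34 and BIRC5, the passenger protein survivin, by -1.20 ± 0.22.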

How the data were processed

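The authors deposited log2 levels, 1 value per probe set and array. The submitters' processing notes name RMA and Affymetrix Expression Console 1.1. RMA makes the arrays' distributions alike, so a shift of most genes cannot be seen, and no detection calls were used. The number of arrays limits the precision. No source used here gives the build behind the array.

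Groups came from sample titles. Of 33297 probe sets, 19181 had 1 symbol, 2055 had several and 12061 were not listed in the platform annotation and are unnamed here. The brightest probe set was kept for the 895 genes with several, which left 17958 genes. limma 3.58.1 in R 4.3.3 (lmFit, eBayes) was fitted on 6 group means with 11 residual degrees of freedom, and p-values were adjusted by Benjamini-Hochberg over 17958 genes at a threshold of 0.05. The fit was tested on simulated data with independent noise and the same spread in every group. That test does not cover shifts of many genes on single arrays, as seen here.

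The members, the lists and the 3 arrays left out were chosen with earlier results of these data known. Genes named were the members, STK11, CDKN1A, CDKN1B, CDKN2A and RB1, and up to 4 called genes of each list. Alternatives were a replicate block, other groupings of conflicting labels, leaving out arrays, filtering dim genes, other normalizations, probe sets, priors, weights, lists, and each line alone. Figures were drawn with matplotlib 3.10.9.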

Additional observations from a re-analysis of the deposited data

Results flagged for a closer look

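CCND2, the D-type cyclin, differed between the lines in its LKB1 effect by a test of that difference. The log2 difference made by LKB1 was larger in H2122 than in A549 by 1.35 (adjusted p = 0.0185, limma) with pBABE as the control and by 1.63 (adjusted p = 0.00444) with K78I, and all 3 H2122 LKB1 arrays lay above all 5 H2122 controls. With pBABE the call was lost without H2122 LKB1 replicate 3, and by source name both calls were lost (adjusted p = 0.473 and 0.656, limma). CCND2 was dim, and its A549 levels cannot be told from background.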

How the results depend on the processing

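No member called with all arrays reversed its sign under the alternatives run, and only these members were checked for reversal. The S-phase and mitotic medians against pBABE did change sign in both lines under some alternatives, as did the S-phase median against K78I in A549. Calls of members moved more. In A549 against pBABE, 1 member was called without the 3 low control arrays, 1 without the 2 arrays at odds with their STK11 label, 1 without the 3 arrays with conflicting labels and 2 with array weights (0 to 2 when leaving out each array), and against K78I leaving out arrays gave 0 to 1. In H2122 against pBABE, 2 were called without the low arrays, 0 when grouped by source name and 0 without the dimmest 30% of genes, which removes CCND2 (1 to 30 when leaving out each array). The S-phase median there was -0.41 without the low arrays, -0.45 without the conflicting arrays and -0.80 by source name (-0.41 to 1.44 when leaving out each array), and the mitotic median -0.15, -0.15 and -0.72 (-0.15 to 1.61). In H2122 against K78I, 3 were called without the low arrays, 0 by source name, 0 without the dimmest genes and 3 with array weights, and by source name the S-phase median was -0.68 and the mitotic median -0.66. For K78I against pBABE in H2122, leaving out arrays gave 0 to 36. In the difference between lines with pBABE, 0 were called without the low arrays, without the conflicting arrays, by source name or without the dimmest genes (0 to 25 when leaving out each array), and with K78I 0 by source name and 0 without the dimmest genes. Between lines with LKB1, 21 were called without the low arrays, 10 by source name, 2 after median centring and 17 with array weights (1 to 9 when leaving out each array).

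CCND2 lost its call in both H2122 comparisons when arrays were grouped by source name, with log2 differences of 1.13 (adjusted p = 0.252, limma) and 0.39 (adjusted p = 0.942), and kept it in the other 28 alternatives that tested it. All values by source name rest on a grouping that goes against the STK11 levels of H2122 pBABE replicate 2 (6.22) and H2122 K78I replicate 3 (11.26). With the replicate number as a block the CCND2 difference from pBABE was 1.20 (adjusted p = 0.00693) and 1 member was called, and the block changed 1 call of a member, TOP2A between the lines. Deviations of same-numbered arrays correlated above 0.1 in 4 of 9 pairs in A549 (-0.64 to 0.35) and in 6 of 7 in H2122 (0.064 to 0.42), where 6 of the 8 arrays correlated best with an array of their own number, a hint from the data and not from the design. The H2122 arrays alone with the replicate block, an alternative chosen after seeing the data, gave 1 member called against pBABE and 1 against K78I, CCND2 in both. Apart from the changes above that their construction shows (CCND2 filtered out, fewer arrays), the cause was not tested.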
